A study of Mus musculus with 19 samples.

Results

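The heat shock genes examined here are 10 chaperone and regulator genes of the cytosol, nucleus and mitochondria. They were taken by symbol from the liver RNA-seq table and were Hsf1, Hsp90aa1, Hsp90ab1, Hspa8, Hspa1b, Hsph1, Dnajb1, Hspb1, Hspd1 and Hspe1. All 10 were found among the 24054 genes listed. The mice carried Raly flox/flox alleles on a C57BL/6 background, ate chow and were examined 4 weeks after 1 adeno-associated virus was given. AAV8.TBG.Cre deleted exons 3 and 4 of Raly (L-RalyKO, 3 mice, genotype label RALY-KO) and AAV8.TBG.GFP served the controls (3 littermates, genotype label wild type although they were floxed as well). The TBG promoter is active in hepatocytes, so that other liver cells keep Raly. Male mice were the rule in the study, and the age of these animals is not given in the sources used here. The paper notes fasting beside its liver qPCR and does not say whether the RNA-seq animals fasted. Its RNA-seq plot is given as 4 mice per group, where 3 per group were listed. RNA came from whole liver, in which fewer cells of a type and less RNA per cell cannot be told apart.

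Heat shock factor 1, the product of Hsf1, is held inactive by chaperones in unstressed cells. When unfolded proteins occupy those chaperones it forms trimers, enters the nucleus and binds heat shock elements, which are alternating inverted repeats of the bases GAA and TTC. Its targets fold or hold proteins in the cytosol (HSP90, HSP70, HSP110, HSP40 and small heat shock proteins) and in the mitochondrial matrix (HSP60 with its lid HSP10). In liver some of these genes are always highly active, while others are low until stress or the daily rise in body temperature.

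Such elements are shown first, for the 5 members in whose windows a pair was found. Upstream sequence was read from the RefSeq promoter windows of GRCm38.p6, which reach from 250 bases before to 50 bases after a gene's start. Windows were at hand for Hspa1b, Hsph1, Dnajb1, Hspb1, Hspd1 and Hspe1. A pair of facing units was searched as GAANNTTC or TTCNNGAA, each of which reads the same on both strands. Such a pair occurs in 15.1% of the 32851 mouse promoter windows. Capitals mark the units, and all sequences run 5′ to 3′ on the strand of the gene.
Hspe1, chr1:55088053-55088082, + strand: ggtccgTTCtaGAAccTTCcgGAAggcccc
Hspd1, the same bases read from the other strand: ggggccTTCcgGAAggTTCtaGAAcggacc
Hspa1b, chr17:34959305-34959372, - strand: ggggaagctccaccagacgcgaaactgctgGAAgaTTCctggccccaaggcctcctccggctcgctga
Hspb1, chr5:135887772-135887859, + strand: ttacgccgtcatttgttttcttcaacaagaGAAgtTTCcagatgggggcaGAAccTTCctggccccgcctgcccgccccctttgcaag
Hsph1, chr5:149636351-149636380, - strand: gggtagaatctTTCtcGAAggctcgagaag

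Hspd1 and Hspe1 lie head to head and share 1 run of 4 alternating units, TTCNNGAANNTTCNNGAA, which begins 89 bases before the start of Hspe1. That run, or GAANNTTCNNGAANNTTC, is found in 8 of the 32851 windows (0.0244%), and 2 of those 8 windows are the ones of Hspd1 and Hspe1. Hspa1b had 1 pair, which begins 104 bases before its start in a stretch that occurs 2 times on mm9 chromosome 17, and Hspb1 had 2 separate pairs, which begin at 117 and 97 bases. Each of the 2 windows of Hsph1 had 3 pairs, of which 1 lies upstream and the other 2, after the start, form a run of 3 units (a run of 3 is found in 0.603% of windows), and of the 2 windows of Hspd1 the one without the run had no pair. Upstream refers to the RefSeq starts: on the mm9 annotation, 26 of the 30 bases printed for Hsph1 lie in an exon of Hsph1, and all 30 printed for Hspd1 and Hspe1 lie in an exon of Hspd1. No pair was found in the 2 windows of Dnajb1, which says only that these letters are not in those windows.

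Values are read counts in CPM, scaled by the TMM method and not divided by gene length. Between 28302983 and 38052705 reads were counted per mouse, and the members had from 296 reads (Hsf1 in 1 mouse) to 47701 (Hspa8). The groups were tested by limma after adding 1 and taking log2, over 11580 genes that reached a mean of 1, with false discovery rates after Benjamini and Hochberg as the adjusted p. Log2 fold changes are L-RalyKO minus control on that scale. Raly itself had values of 50.1, 48.6 and 46.8 in controls 1 to 3 and of 6.34, 6.61 and 7.39 in L-RalyKO mice 1 to 3 (log2 fold change −2.67, standard error 0.07, adjusted p = 6.92e-07, limma), with no overlap. Control 1 stood apart from the other 2 controls, with chi-squares of 71.1 and 84.3 per degree of freedom, where the other pairs within a group had 12.6 to 27.4. The summed value of 7 hepatocyte markers ran from 86500 to 95700 in the controls and from 96650 to 97750 in the L-RalyKO mice. Of the 7, 1 marker, Hpd, was called, against 6.55% of all tested genes. Alb, the largest of them, overlapped between the groups (63860, 71900 and 69010 in the controls, 70090, 70780 and 70820 in the L-RalyKO mice). Ttr, Tat and Apob overlapped too, while Apoa1, Cps1 and Hpd did not, where 28.1% of all tested genes did not overlap. The part of this summed value in the differences below was not tested. Without control 1, again 0 of the 10 members were called.

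None of the 10 heat shock genes had an adjusted p under 0.05 in limma (0 of 10), where 6.55% of all tested genes did. EdgeR's quasi-likelihood test and DESeq2 on the recovered reads also called 0 of 10. At an unadjusted p under 0.05 limma found 1 member, Hspd1, where 22.7% of all tested genes passed. The L-RalyKO and control values of 1 member (again Hspd1) did not overlap, where this held for 28.1% of all tested genes. The estimates of 8 members were above 0 and those of 2, Hsp90aa1 and Hspb1, below, where 5925 of all 11580 tested genes were above 0. The median log2 fold change of the 10 members was 0.10, against 0.004 over all tested genes. The spread between mice of the members' median log2 value was 0.09, about as large.

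**Figure D1:**
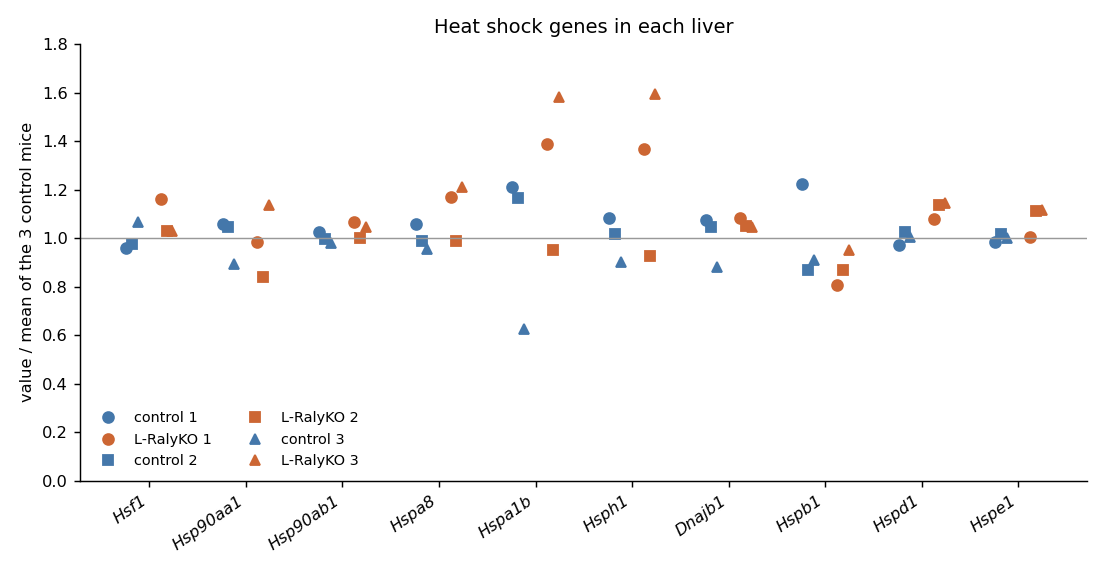
Value of each heat shock gene in each liver, divided by the mean of the 3 control mice (vertical axis, linear, from 0), with controls in blue, L-RalyKO in orange and the mouse number as the symbol. Hspa1b and Hsph1 spread widest, from 14.7 to 37.1 and from 42.0 to 74.2 before division, and the groups are apart only for Hspd1.

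Hsf1 encodes the regulator of the whole set (ENSMUSG00000022556.8, chr15:76307865-76331402 of mm9, + strand). Its values were 10.2, 10.4 and 11.3 in the controls and 12.3, 11.0 and 10.9 in the L-RalyKO mice. L-RalyKO 1 lay above all controls and the other 2 lay between them. Hsf1 thus averaged 10.6 ± 0.61 in controls and 11.4 ± 0.79 in L-RalyKO liver (SD, n = 3 mice each), and the log2 fold change of 0.09 had a 95% interval from −0.08 to 0.27 (adjusted p = 0.516, limma). It was 0.04 without L-RalyKO 1 and 0.14 without control 3. HSF1 is controlled mainly as a protein, which RNA does not show.

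HSP90 finishes the folding of kinases and steroid receptors and exists in the cytosol as an inducible alpha form (Hsp90aa1) and a constant beta form (Hsp90ab1). Hsp90aa1 (chr12:111928815-111940938, - strand) had values of 210, 207 and 177 in the controls and 195, 166 and 224 in the L-RalyKO mice. The groups overlapped fully, since L-RalyKO 2 was the lowest of the 6 livers and L-RalyKO 3 the highest. The difference of −0.03 had an interval from −0.27 to 0.22 (adjusted p = 0.925, limma), and its sign turned in 3 of the 6 fits that left out a mouse. Hsp90ab1 (chr17:45704724-45710220, - strand) had 844, 823 and 808 in the controls and 880, 824 and 863 in the L-RalyKO mice. It was among the steadiest members from mouse to mouse. Its log2 fold change of 0.05 had the narrow interval of −0.07 to 0.17 (adjusted p = 0.606, limma), that is between 0.955-fold and 1.12-fold.

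The HSP70 chaperones bind short unfolded stretches. Hspa8 encodes the constant form HSC70 (chr9:40609067-40613283, + strand), and it had values of 1097, 1024 and 988 in the controls and 1211, 1023 and 1255 in the L-RalyKO mice. L-RalyKO 1 and 3 lay above every control, whereas L-RalyKO 2 lay just under control 2. The log2 fold change was 0.16, with an interval from −0.03 to 0.35 (adjusted p = 0.293, limma). It was 0.25 without L-RalyKO 2 (adjusted p = 0.1, limma) and 0.11 without L-RalyKO 3, and the adjusted p lay between 0.1 and 0.556 over the alternatives. An exact permutation test over the 20 splits of the 6 mice, two-sided, gave p = 0.3 for Hspa8, and the smallest p that 3 mice against 3 allow is 0.1.

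Hspa1b encodes the stress-inducible HSP70 and is a single exon on chr17:35093381-35096183 (- strand). Its values were 28.4, 27.4 and 14.7 in the controls and 32.5, 22.3 and 37.1 in the L-RalyKO mice. Control 3 was the lowest of the 6 livers, the 2 highest were L-RalyKO 1 and 3, and the groups overlapped. The ratio between the highest and the lowest mouse was 1.94 among the controls and 1.66 among the L-RalyKO mice, while the counting error at its 542 to 1410 reads was at most 4.3%. The difference of 0.40 had an interval from −0.18 to 0.97 (adjusted p = 0.394, limma), and the estimate was 0.10 without control 3 (adjusted p = 0.785, limma, where its alternatives gave 0.247 to 0.785). Of the 50-base words of Hspa1b, 62.1% also occur in its neighbour Hspa1a, so the reads of both could have been split in counting. The reads were paired and longer than these words, so the share of reads concerned may be smaller. Hspa1a was listed at 3.37, 2.56 and 1 in the controls and 0.99, 1.04 and 2.79 in the L-RalyKO mice. With both summed, the log2 fold change was 0.34 (adjusted p = 0.49, limma).

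The summed level of 6 erythroid markers, among them globins, also differed from mouse to mouse. It was 1181, 1183 and 707 in the controls and 1359, 686 and 969 in the L-RalyKO mice, lowest in control 3 and L-RalyKO 2, the same livers in which Hspa1b was lowest in its group, but in L-RalyKO 3, where Hspa1b was highest, it was below controls 1 and 2. None of the 5 erythroid markers tested was called, and their part in the spread of Hspa1b was not tested.

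Hsph1 encodes HSP110, which exchanges the nucleotide of HSP70 (chr5:150416862-150438951, - strand). It had values of 50.5, 47.3 and 42.0 in the controls and 63.7, 43.1 and 74.2 in the L-RalyKO mice. L-RalyKO 1 and 3 were above every control and L-RalyKO 2 was near the bottom. The log2 fold change of 0.33 had an interval from −0.05 to 0.72 (adjusted p = 0.287, limma). The estimate moved with single L-RalyKO mice. Without L-RalyKO 2 it was 0.56 with an adjusted p of 0.0258 in limma, the one fit of 15 alternatives in which a member was called. Without L-RalyKO 3 it was 0.17 with an adjusted p of 0.589 in limma. None of the 50-base words of Hsph1 occurs elsewhere in mm9.

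Dnajb1 encodes the HSP40 that delivers substrates to HSP70 (chr8:86132074-86135801, + strand). Its values were 27.5, 26.9 and 22.6 in the controls and 27.7, 26.9 and 26.9 in the L-RalyKO mice. The L-RalyKO livers were nearly equal, and control 3 alone was lower. The estimate of 0.09 (interval −0.09 to 0.26, adjusted p = 0.567, limma) vanished without control 3 (−0.001).

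Hspb1 encodes a small heat shock protein, called HSP25 in the mouse, which holds unfolded proteins without using ATP (chr5:136363789-136365433, + strand). It had values of 17.9, 12.7 and 13.3 in the controls and 11.8, 12.7 and 13.9 in the L-RalyKO mice. Control 1 was the single high liver, and the other 5 lay within a narrow range. The difference of −0.16 (interval −0.44 to 0.11, adjusted p = 0.474, limma) was −0.02 without control 1 (adjusted p = 0.938, limma, where its alternatives gave 0.316 to 0.938). Control 1 was also the liver with the most adipocyte marker RNA, a summed value over 6 markers of 20.7, against 7.85 and 10.2 in the other controls and 5.61 to 5.99 in the L-RalyKO mice. Of the sum in control 1, Cfd made up 12.6 and Fabp4 7.57, while Adipoq was at most 0.12 and Lep and Retn were listed at 0 in all livers but control 1. Fabp4 was at 4.79 to 6.68 in the other livers. Of the 2 adipocyte markers tested 1, Cfd, was called, against 6.55% of all tested genes. The part of these cells in the value of Hspb1 was not tested.

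In the mitochondria, HSP60 (Hspd1) forms a barrel in which imported proteins fold and HSP10 (Hspe1) closes it. Hspd1 (ENSMUSG00000025980.8, chr1:55134679-55145087, - strand) had values of 496, 523 and 512 in the controls and 551, 579 and 584 in the L-RalyKO mice. Every L-RalyKO liver was above every control. The averages were 511 ± 13.4 and 572 ± 17.7 (SD, n = 3 mice each), a ratio of 1.12. On the log2 scale the difference was 0.16 with a standard error of 0.05 (95% interval 0.05 to 0.27). The unadjusted p in limma was 0.00993, but the adjusted p was 0.0907 and stayed between 0.0639 and 0.226 over the alternatives, so that Hspd1 was not called in any of them. The exact permutation test gave p = 0.1, the smallest it can give.

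Hspe1 (ENSMUSG00000073676.4, chr1:55144976-55148151, + strand) had values of 81.0, 83.8 and 82.4 in the controls and 82.8, 91.5 and 92.0 in the L-RalyKO mice. L-RalyKO 2 and 3 were above every control, and L-RalyKO 1 was among them. The log2 fold change was 0.10, with an interval from −0.02 to 0.23 (adjusted p = 0.298, limma). The annotated ends of the genes of this pair overlap by 112 bases on opposite strands. In the exact permutation test Hspe1 had p = 0.2.

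**Figure D2:**
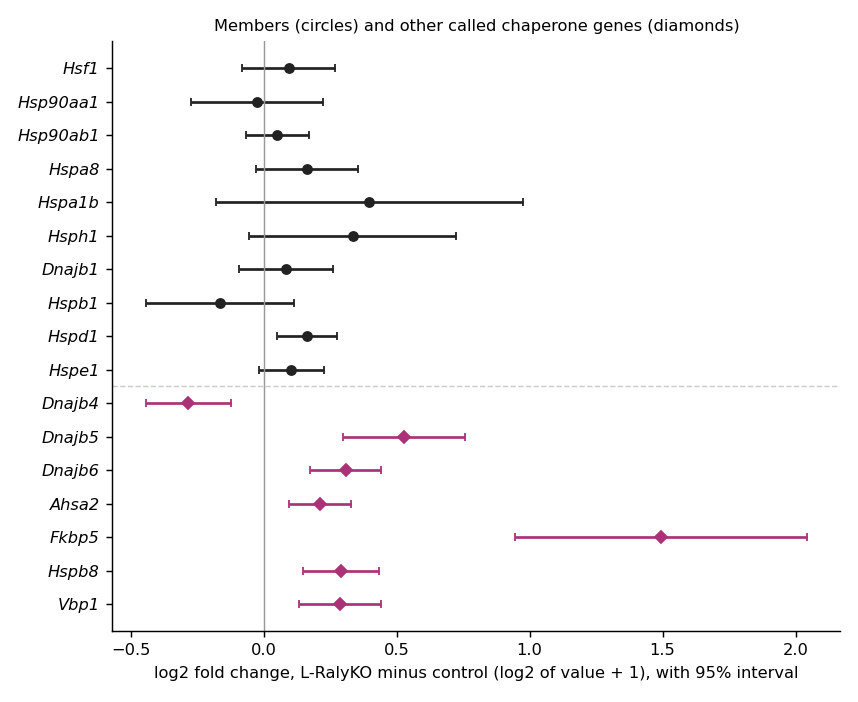
Log2 fold change (L-RalyKO minus control, on log2 of value + 1) with its 95% interval from limma, n = 3 mice per group, for the 10 members (circles) and the 7 genes of the other cytosolic and mitochondrial chaperone lists with an adjusted p under 0.05 (diamonds). Among the members only the interval of Hspd1 (0.05 to 0.27) leaves out 0, and Fkbp5 has the largest change of those drawn, 1.5.

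Per kilobase of the longest protein-coding transcript (GENCODE vM1 on mm9), the members differed widely in control liver. Hspa8 was highest, at 433 ± 23.2 per kb (SD, n = 3), which is 85.5 times the level of Hsf1. Below it came Hsp90ab1 at 327 ± 7.29, Hspd1 at 211 ± 5.55, Hspe1 at 106 ± 1.82 and Hsp90aa1 at 60.3 ± 5.54 per kb. These 5 did not overlap with one another in any of the 6 livers. Next were Hspb1 (15.7 ± 3.06), Hsph1 (12.3 ± 1.13), Dnajb1 (11.3 ± 1.19), Hspa1b (8.37 ± 2.73) and Hsf1 (5.06 ± 0.29), and each neighbour in this lower part of the order overlapped with the next over the 6 livers. The order was read with care, because 75.7% of the 50-base words of Hspa8, 73.1% of those of Hsp90aa1, 63% of those of Hspb1, 58.5% of those of Hspd1 and 46.5% of those of Hspe1 also occur elsewhere in the mm9 genome, so that the authors' counting could have divided or dropped reads. For Hsp90ab1 this share was 8.3%, for Dnajb1 0.768% and for Hsf1 0%. Per the methods the reads were paired and longer than these words, so the share of reads that match elsewhere may be smaller.

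**Figure D3:**
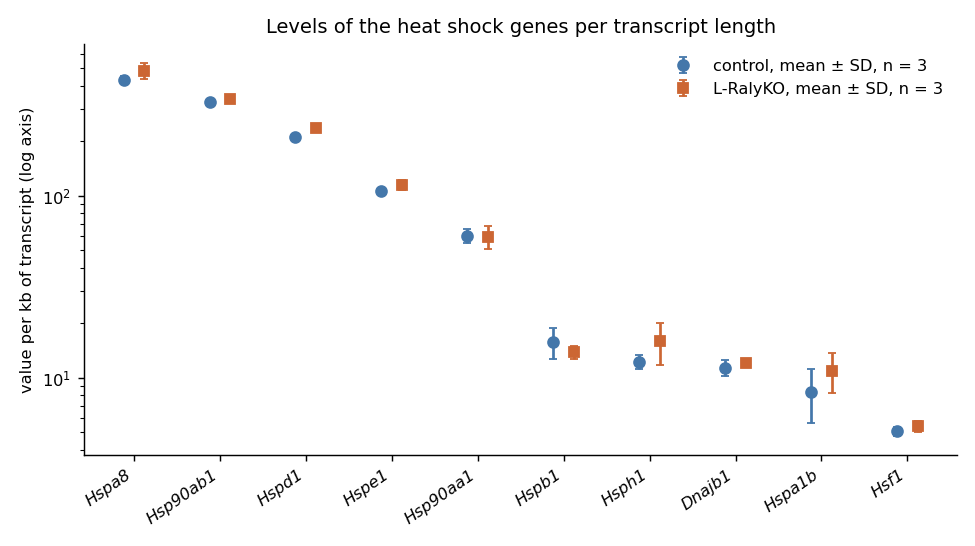
Value per kb of transcript (vertical axis, logarithmic) for each heat shock gene, as mean ± SD over the 3 control mice (blue circles) and the 3 L-RalyKO mice (orange squares). Levels run from 433 (Hspa8) to 5.06 (Hsf1) in controls, and within a gene the 2 groups lie close together.

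The members did not vary as 1 block from mouse to mouse. For Hspa8, Hsph1 and Hspa1b the 6 livers came in the identical order, L-RalyKO 3, L-RalyKO 1, control 1, control 2, L-RalyKO 2 and control 3. For Hspa8, control 2 and L-RalyKO 2 (1023.7 and 1023.3) were closer than the counting error of up to 0.585%, so their order is not settled. Hspa8 and Hsph1 were the most alike of the 45 pairs of members, with a Pearson r of 0.98 over the 6 mice (Spearman rho of 1, and r of 0.89 without the 2 mice farthest from the median of Hspa8). Hspd1 and Hspe1 were alike too (r of 0.90, rho of 0.94, and r of 0.82 without the 2 farthest). In contrast, r between Hspa1b and Hspd1 was 0.39 (rho of 0.43), and its sign turned without the 2 farthest (−0.44) and within groups (−0.15). The median over all pairs was 0.37, with 11 pairs below 0. These values describe 6 livers of 2 groups that share their library scaling, and no test is attached to them.

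The spread within groups differed among the members when set against genes of like level. The pooled SD on the log2 scale was 0.44 for Hspa1b, larger than in 99.4% of the 500 tested genes nearest to it in level. It was 0.30 for Hsph1 (97%), 0.18 for Hsp90aa1 (94.2%) and 0.19 for Hspb1 (93%), but 0.11 for Dnajb1 (76%). For Hspd1 it was 0.04 (13.2%) and for Hsp90ab1 also 0.04 (11.8%). A change of a given size could therefore be seen more easily in the latter genes.

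L-RalyKO 2 was the lowest of the 3 L-RalyKO mice for 5 of the 10 members (Hsp90aa1, Hsp90ab1, Hspa8, Hspa1b and Hsph1) and the highest for none, while L-RalyKO 3 was the highest for 7. The ER chaperone Hspa5 (BiP), counterpart of Hspa8, was also lowest in L-RalyKO 2, with values of 657, 636 and 594 in the controls and 920, 498 and 893 in the L-RalyKO mice. Its log2 fold change of 0.24 (adjusted p = 0.535, limma) was 0.53 without L-RalyKO 2 (adjusted p = 0.00888, limma, but up to 0.877 in other alternatives). The mitochondrial HSP70 gene Hspa9 went with Hspd1 instead, at 550, 564 and 576 in the controls and 586, 617 and 610 in the L-RalyKO mice. The groups of Hspa9 did not overlap (log2 fold change 0.10, adjusted p = 0.258, limma), which held for 28.1% of all tested genes. Of the 19 tested other mitochondrial chaperones and proteases, Hspa9 among them, 7 had a difference above 0 and 12 below. Their median log2 fold change was −0.01. Over whole lists, L-RalyKO 2 was the lowest L-RalyKO mouse for 16 of 18 ER chaperones, 7 of 18 other HSP70 and HSP110 genes with exchange factors, 7 of 20 J-domain cochaperones, 5 of 17 HSP90 cochaperones and 2 of 19 other mitochondrial genes, against 31.6% of all tested genes. The shorter lists went both ways. They gave 3 of 6 other heat shock factors and regulators of HSF1, 1 of 4 other small heat shock proteins and 3 of 13 TRiC and prefoldin subunits. Outside the chaperones it was 4 of 6 heat-inducible genes, 3 of 13 immediate-early genes and 1 of 2 cold-inducible genes.

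**Figure D4:**
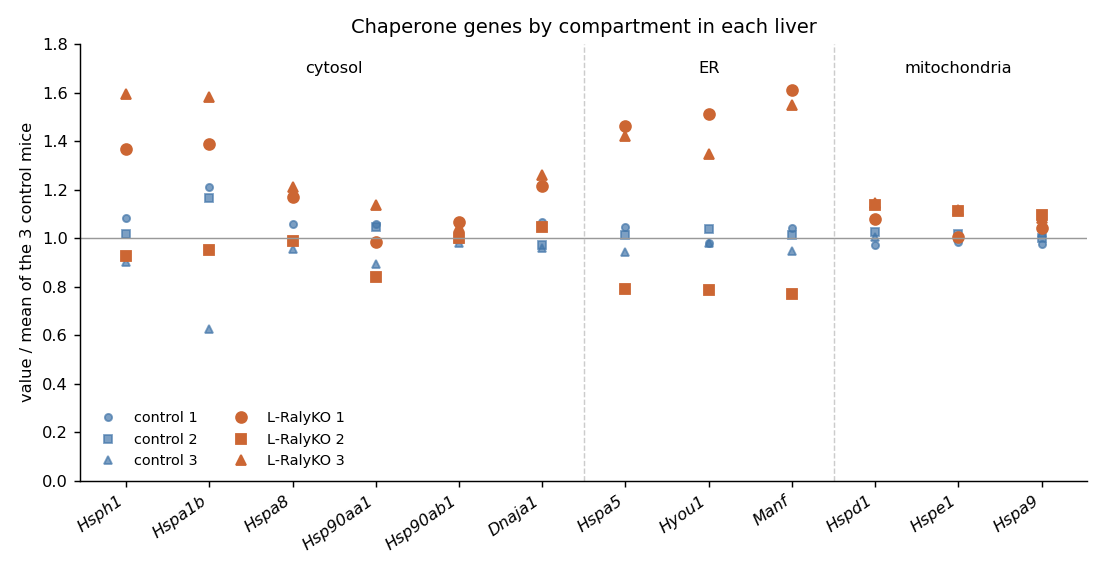
Value of cytosolic, ER and mitochondrial chaperone genes in each liver, divided by the mean of the 3 controls (vertical axis, linear, from 0), with controls as small blue and L-RalyKO mice as large orange symbols. The genes were picked after their values were seen, and L-RalyKO 2 (orange square) is the lowest L-RalyKO mouse for the cytosolic and ER genes drawn, a pattern that most genes of the wider cytosolic lists do not have (7 of 18, 7 of 20 and 5 of 17 in the 3 longest).

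Among the genes whose pattern over the 6 mice was most like that of Hspa1b were Ddah2 (Pearson r of 0.994), Angptl6 (0.986), Rpl36al (0.975) and Slc18b1 (0.972). Those most like Hspd1 were Csnk1g1 (r of 0.998), Pwwp2a (0.998), Dnajb6 (0.997), Sh3glb1 (0.997) and Zbtb14 (0.993). These genes come from the top 5 of 11580 genes over 6 mice, in which high values of r arise readily.

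The wider chaperone network was read from 7 lists with 97 tested genes of 114 named. Of these, 6 rose and 1 fell at an adjusted p under 0.05 (7 of 97, 7.22%), close to the 6.55% of all tested genes, and the median log2 fold change was 0.02. The J-domain cochaperones of the cytosol held 3 of the 7 among 20 tested genes. Dnajb6, whose product suppresses aggregation, rose from 80.5, 88.3 and 86.9 in the controls to 99.5, 107 and 111 in the L-RalyKO mice (log2 fold change 0.31, standard error 0.06, adjusted p = 0.0187, limma, lost in 3 of 15 alternatives). Dnajb5 rose too (0.53, adjusted p = 0.0190, limma, lost in 3 of 14 alternatives) from a low level of 2.65 ± 0.35 to 4.24 ± 0.22 (SD, n = 3 mice each). Dnajb4 fell by 0.28 on the log2 scale (adjusted p = 0.0488, limma, lost in 8 of 15 alternatives).

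Among 17 tested HSP90 cochaperones, Fkbp5 and Ahsa2 rose (2 of 17, against 6.55% of all tested genes). Fkbp5, which slows the maturation of the glucocorticoid receptor and is itself induced by glucocorticoids, had values of 67.2, 53.1 and 119 in the controls and 233, 194 and 216 in the L-RalyKO mice. The groups were far apart (log2 fold change 1.5, standard error 0.24, adjusted p = 0.0105, limma), and the call held in all 15 alternatives. Ahsa2, a relative of the HSP90 activator Ahsa1, rose by 0.21 (adjusted p = 0.0474, limma), a call lost in 13 of 15 alternatives (adjusted p up to 0.163). The activator Ahsa1 itself had a log2 fold change of −0.01 and Stip1, which joins HSP70 to HSP90, of 0.002, neither called.

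Of the other small heat shock proteins 4 were tested and 1, Hspb8, was called (1 of 4, against 6.55% of all tested genes). Hspb8, the partner of Bag3 in selective autophagy, rose (0.29, adjusted p = 0.0319, limma, lost in 6 of 15 alternatives) from 132, 118 and 133 in the controls to 163, 160 and 147 in the L-RalyKO mice. Its partner Bag3, a strongly heat-inducible gene, had lower values in all L-RalyKO livers (36.6, 33.2 and 37.9) than in any control (46.0, 39.3 and 41.5). The difference of −0.23 was not called (adjusted p = 0.106, limma), and groups without overlap were found for 28.1% of all tested genes. Among 13 tested subunits of the chaperonin TRiC and of prefoldin, which fold actin and tubulin, Vbp1 alone was called. That is 1 of 13 (7.69%), close to the 6.55% of all tested genes. The log2 fold change of Vbp1 was 0.29 (adjusted p = 0.0441, limma, a call lost in 10 of 15 alternatives). The 3 lists without a called gene were the other heat shock factors and regulators of HSF1 (0 of 6, largest difference Sirt1 at 0.23), the other HSP70 and HSP110 genes with their exchange factors (0 of 18, Hspa2 at 0.36, called only without control 3) and the other mitochondrial chaperones and proteases (0 of 19, Ddit3 at 0.25, which was put in that list but encodes the stress transcription factor CHOP). Beside these counts of 0, 6.55% of all tested genes were called. Unadjusted p values under 0.05 numbered 2 of 6, 2 of 18 and 3 of 19 in the 3 lists, where 22.7% of all tested genes had one.

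Of the 18 ER chaperones 0 were called by limma (against 6.55% of all tested genes) and 2 had an unadjusted p under 0.05 (against 22.7%), with a median log2 fold change of 0.12 and the largest value in Creld2 (0.65, adjusted p = 0.236, limma). Creld2 had values of 24.2, 25.6 and 20.3 in the controls and 54.2, 20.5 and 45.5 in the L-RalyKO mice, and without L-RalyKO 2 its log2 fold change was 1.06 (adjusted p = 0.00587, limma, but up to 0.525 in other alternatives). The cold-inducible RNA-binding protein genes, which in liver run opposite to heat shock genes over the day, had values below 0 for the difference. Cirbp was lower in all L-RalyKO livers (12.9, 10.5 and 12.3) than in any control (13.8, 14.2 and 13.8), where 28.1% of all tested genes did not overlap. The difference of Cirbp was −0.22 on the log2 scale (adjusted p = 0.163, limma). Rbm3 overlapped between the groups (−0.17, adjusted p = 0.367, limma).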

How the data were processed

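Liver RNA-seq of 3 L-RalyKO and 3 control mice was used, and the ATAC-seq and ChIP-seq samples were not analysed here. Per the methods, stranded libraries were aligned with TopHat v2.0.2 to mm9, with Cufflinks 2.0.2 (also in the submitters' processing notes). The values the authors deposited are a signal, read counts in CPM over an effective library size, whose making is not described. All values were whole multiples of the value of 1 read (100% within 0.01), and their scaling factors were equal to edgeR's TMM factors. Columns were matched by virus and replicate number. Nothing says whether mice were processed together, so p-values measure the spread between these mice.

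Limma 3.58.1 (R 4.3.3) with an intensity trend was run on log2(value + 1) over genes that reached a mean of 1 (p-values adjusted after Benjamini-Hochberg, intervals at 95%); the edgeR quasi-likelihood test on the recovered reads called 731 genes. Alternatives were a pseudocount of 0.1, no filter or a minimum of 5, total count or upper-quartile scaling, DESeq2 1.42.0, edgeR 4.0.16, limma without a trend, a replicate block and leaving out each mouse, and, chosen after seeing the data, Hspa1a and Hspa1b summed. Scripts were tested on simulated data. Transcripts and the genome were GENCODE vM1 on NCBIM37 (mm9). Promoters came from RefSeq GRCm38.p6 and were matched by symbol for 6 of 10 members.

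Named were all members, Raly, Hspa5, Cirbp, Rbm3, from each other list the called genes and the largest difference, and the 5 genes most like Hspa1b and Hspd1, of which 1 is not reported here. The members and lists were chosen with earlier results of these data known. Hspa9, Bag3, Hspa1a, Ahsa1, Stip1 and those in the plot by compartment were named after their values were seen.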

Additional observations from a re-analysis of the deposited data

How the results depend on the processing

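The number of heat shock genes called was 0 under all alternatives but 1. Leaving out each mouse gave from 0 to 1, and the 1 was Hsph1 without L-RalyKO 2. The median log2 fold change of the members lay between 0.0661 (total count scaling, which moved the median of all tested genes to −0.0274) and 0.118. Leaving out mice moved Hsp90aa1 from −0.131 to 0.0851 (above 0 without control 1, control 2 or L-RalyKO 2) and Dnajb1 from −0.0011 (without control 3) to 0.137. The cause was not tested. Over all tested genes 758 calls became 484 with no filter on low values, and leaving out a mouse gave 332 to 813. Of the calls, 51.3% were higher in L-RalyKO liver, and 40.9% with total count scaling.

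Same-numbered mice are different animals, and their deviations from the group means had correlations of 0.0664, −0.0238 and 0.0195. Such values over all tested genes cannot show whether same-numbered mice were handled together, because a shared influence on some genes would hardly move them. Not every mouse correlated best with its own number. With the replicate block 0 members were called, the median of the members was 0.0988 as before, and all tested genes gave 704 calls in place of 758. The log2 fold change of Hspd1 was 0.162 with an adjusted p of 0.0979 (limma).

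The counting error at the lowest library was 5.81% for Hsf1 (296 reads), whose pooled SD between mice was 0.083 on the log2 scale, and 4.3% for Hspa1b, whose SD was 0.44. The interval of the difference reached from −0.18 to 0.97 for Hspa1b.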

Other observations

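Immediate-early genes respond within minutes to stress and handling. Of 13 tested, Ier2 rose and Klf4 fell at an adjusted p under 0.05 (2 of 13, against 6.55% of all tested genes), and 7 had an unadjusted p under 0.05 (against 22.7%). Ier2 had values of 9.24, 13.1 and 14.5 in the controls and 21.9, 25.0 and 17.0 in the L-RalyKO mice (log2 fold change 0.75, adjusted p = 0.0376, limma, lost in 7 of 15 alternatives). Klf4 had 3.76, 3.30 and 4.19 in the controls and 1.31, 1.25 and 2.03 in the L-RalyKO mice (−0.92, adjusted p = 0.00811, limma). Myc had the largest difference of that list and a wide spread, at 3.22, 3.19 and 2.41 in the controls against 25.3, 17.1 and 3.66 (1.74, adjusted p = 0.0907, limma). It was called by DESeq2, with the replicate block and without L-RalyKO 3 (adjusted p from 0.00135 to 0.232 over its alternatives).

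Of 6 tested heat-inducible genes outside the chaperone families 0 were called by limma (against 6.55% of all tested genes) and 4 had an unadjusted p under 0.05 (against 22.7%). Ddit4, an inhibitor of mTORC1, differed most (19.7, 16.5 and 40.2 in the controls against 6.57, 6.82 and 15.2, log2 fold change −1.32, adjusted p = 0.0661, limma). It was called with the replicate block and without L-RalyKO 3, with adjusted p from 0.00198 to 0.188 over its alternatives.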
